A study of Mus musculus with 4 samples.

Results

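The 42 genes described here are the 39 genes of the mouse Hoxa, Hoxb, Hoxc and Hoxd clusters and the caudal-type genes Cdx1, Cdx2 and Cdx4. They were taken by symbol from the 41543 gene symbols counted in each library: 11 Hoxa, 10 Hoxb, 9 Hoxc, 9 Hoxd and 3 Cdx genes. Polyadenylated RNA was sequenced from the mouse embryonic stem (ES) cell line E14TG2a, kept with serum and the cytokine LIF on gelatin and given no further treatment. The groups were 2 control libraries and 2 libraries from cells in which the histone acetyltransferase KAT6A had been knocked out (KO) with CRISPR/Cas9. The labels do not say whether the KO cells were 1 clone, nor whether replicates came from separate cultures, so p-values reflect the spread among these 4 libraries and nothing wider.

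Hox genes encode homeodomain transcription factors that give cells along the head-to-tail axis their positional identity. They lie in 4 clusters and carry a paralog number, and in the embryo low-numbered genes are active early and anteriorly while high-numbered genes follow later and more posteriorly. In pluripotent ES cells most of them are held nearly silent at CpG-rich promoters under Polycomb marks. The Cdx proteins, also of the homeodomain family, switch on central and posterior Hox genes in the tail of the embryo, and Cdx2 also acts in the trophoblast lineage. KAT6A, also called MOZ, is known as an activator of Hox genes in the mouse embryo, and the study asked what its loss does to transcription in ES cells.

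Libraries held 27494041 to 37354623 counts, so that 1 count equalled 0.0268 to 0.0364 CPM (counts scaled to library size). Kat6a mRNA did not check the labels: it stood at 145 and 143 CPM in control replicates 1 and 2, at 242 CPM in KO replicate 1 and at 86.4 CPM in KO replicate 2 (edgeR log2 fold change 0.19, SE 0.41, adjusted p = 0.772), so KO below means a library labelled KAT6A KO. The 2 KO libraries lay further apart than the controls, with a mean chi-square per gene of 34.4 against 3.70 within the controls. The ES cell markers Pou5f1, Sox2 and Nanog were abundant in every library (415 to 1010 CPM), with log2 fold changes of 0.52, 0.17 and -0.07 and adjusted p of 0.0586, 0.243 and 0.691. Chromosome 11, where the Hoxb cluster lies, was lower as a whole in the KO libraries, with a median log2 fold change of -0.46 over 1322 tested genes, against 0.01 over all 16112 tested genes.

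Nearly all members lay at the lower end of detection. The 42 genes together held 734 and 664 counts in control replicates 1 and 2, and 1188 and 729 counts in KO replicates 1 and 2. Hoxb2, Hoxb5, Hoxb6, Hoxd3 and Hoxd12 had 0 counts in every library, which allows each a level of up to 3 counts, or 0.0803 to 0.109 CPM depending on the library. In all, 14 members never exceeded 3 counts, 22 stayed under 10 counts everywhere, and 6 reached 10 counts in each of the 4 libraries, among them Hoxb9, Hoxb13, Hoxc4, Hoxc13 and Hoxd13. Counting error alone is therefore wide for most of them, as the plot of raw counts by paralog number shows.

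**Figure D1:**
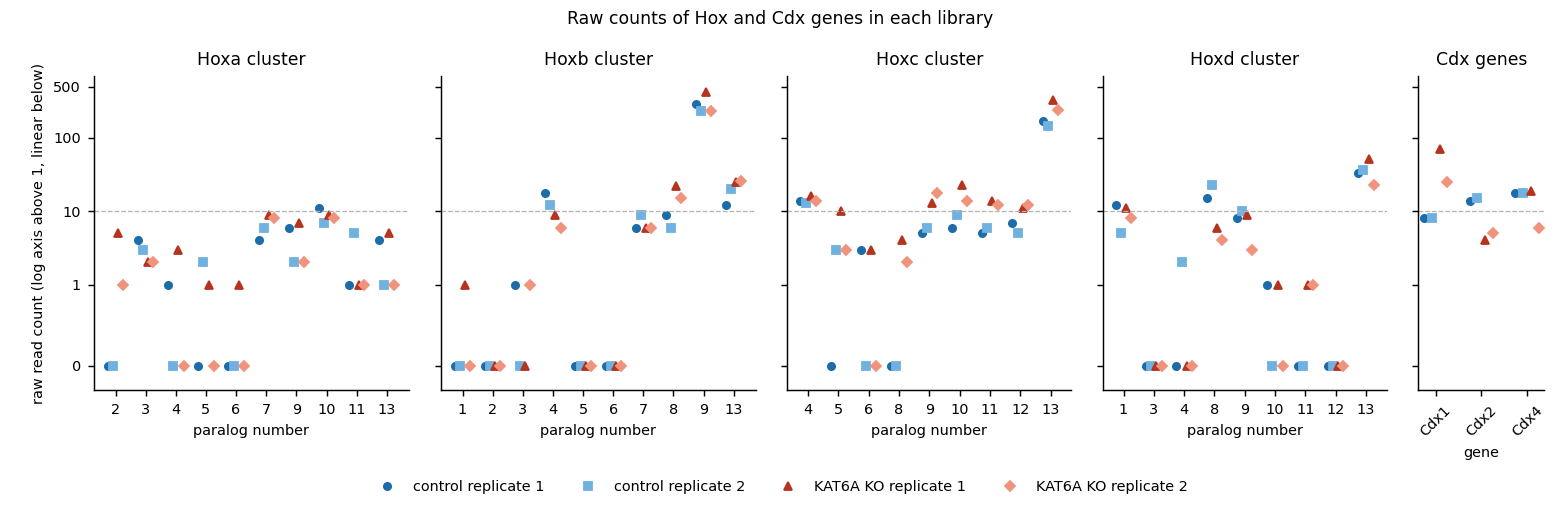
Raw read counts (vertical axis, logarithmic above 1 and linear below) of Hox genes by cluster and paralog number and of the 3 Cdx genes, with 1 symbol per library and a dashed line at 10 counts. Hoxb9 (237 to 426 counts) and Hoxc13 (145 to 327 counts) stand far above the other members, and most members lie under the dashed line.

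Of the 42 members, 17 had enough reads to be tested, among them 4 Hoxb, 6 Hoxc, 3 Hoxd and all 3 Cdx genes. The test was edgeR's quasi-likelihood test on all 16112 genes that passed the low-count filter of about 0.304 CPM in at least 2 libraries, with p-values adjusted over all of them and called at 0.05. Hoxc13 and Cdx1 rose in the KO libraries and no member fell. Over all genes, 5.76% were called higher (928 genes) and 8.57% called lower (1381 genes). At an unadjusted p under 0.05 there were 9 members higher and 2 lower, beside 15.8% and 18.1% of all tested genes. Limma-voom and DESeq2 (which gave 6 of the 17 an adjusted p) also called 0 lower. Both KO libraries lay above both controls for 10 of the 17 tested members, below for Hoxb4, Hoxd8 and Cdx2, and overlapped for 4, among them Hoxd1, Hoxd13 and Cdx4; over all tested genes the shares above and below were 31.5% and 32.8%. Neither this count nor that at an unadjusted p under 0.05 is evidence for the members as a group. Hoxb8, Hoxc9, Hoxc10, Hoxc11, Hoxc12 and Cdx1 entered the test only through the KO libraries. Hoxb4, Hoxd8 and Cdx2 entered only through the controls, so the 9 genes named had to differ to be tested. Of the 8 with libraries of both groups past the filter, Hoxb9, Hoxb13, Hoxc4 and Hoxc13 were higher in both KO libraries and the other 4 overlapped. With KO replicate 1 left out, the log2 fold changes were 1.09 for Hoxb13, 2.08 for Hoxc9 and -1.82 for Hoxd8. With KO replicate 2 left out, they were 1.78 for Hoxb8, 0.93 for Hoxb9, 1.85 for Hoxc10 and 0.82 for Hoxd13. In both settings the spread comes from the 2 controls alone, so calls are not given here.

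**Figure D2:**
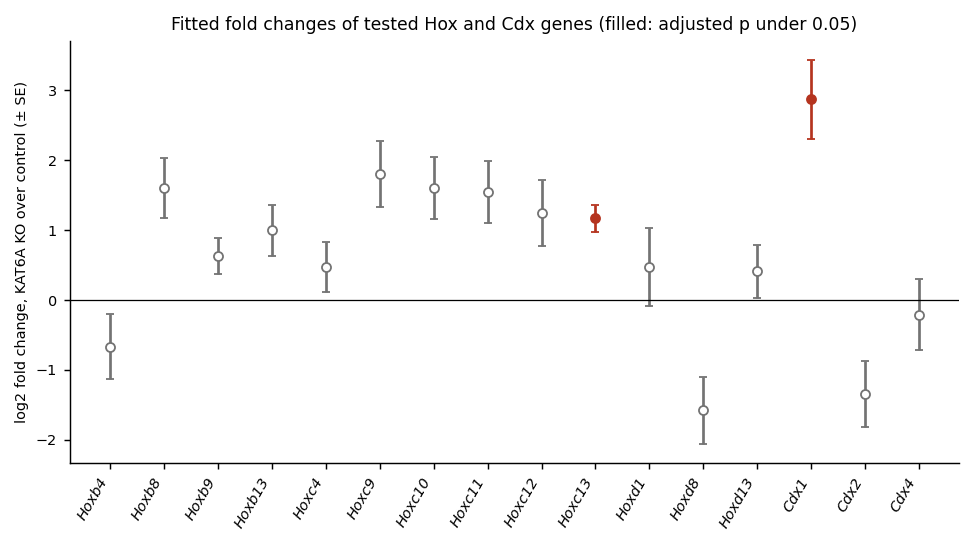
Log2 fold change (KAT6A KO over control, edgeR) of tested Hox and Cdx genes in cluster order, with bars of 1 standard error and filled points for an adjusted p under 0.05. Cdx1 (2.87) and Hoxc13 (1.17) are filled, while Hoxd8 (-1.58) and Cdx2 (-1.34) are the lowest points and are open.

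The Hoxc genes (GRCm38 chromosome 15, Hoxc13 to Hoxc4) had a higher summed level in both KO libraries than in both controls. Summed over its 9 genes, the cluster had 211 and 187 control counts against 421 and 318 in KO replicates 1 and 2. As CPM this was 5.49 ± 0.63 against 12.70 ± 1.60 (SD, n = 2 each), a ratio of 2.31. Without Hoxc13 the remaining 8 genes had 40 and 42 control counts against 94 and 75 KO counts, a ratio of 2.57 in CPM. The ratio was thus no smaller without the gene that dominates the sum. An exact permutation test of such a sum cannot give a p below 0.333 with 2 against 2 libraries, and no other test of the sums was run.

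Hoxc13 (ENSMUSG00000001655.6, chromosome 15 from 102921103 to 102928814, plus strand), the most 5′ gene of its cluster and known for its role in hair and nail formation, had 171 and 145 control counts against 327 and 243 in KO replicates 1 and 2. Both KO libraries were above both controls, at 10.7 and 8.84 CPM against 4.81 and 3.91. Its level rose from 4.36 ± 0.63 to 9.79 ± 1.35 CPM (SD, n = 2), or by 1.17 on the log2 scale (SE 0.19, edgeR adjusted p = 0.0165). Leaving out control replicate 2 gave 1.03 with an adjusted p of 0.0526, and every other setting kept the call. In the authors' deposited table the gene was listed at 0.98 on the log2 scale (SE 0.21), with 0.000113 as adjusted p. Fold changes in the authors' deposited table are smaller than the ratio of the authors' normalized means, which for Hoxc13 is 1.17 on the log2 scale.

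The 4 genes next to Hoxc13, which pattern the lower trunk, hindlimb and tail regions of the embryo, had few reads. Hoxc12 had 7 and 5 control counts against 11 and 12 KO counts. Hoxc11 had 5 and 6 against 14 and 12, Hoxc10 6 and 9 against 23 and 14, and Hoxc9 5 and 6 against 13 and 18. For each of the 4, the groups did not overlap in CPM. Only the KO libraries passed the filter for these genes, so that order had to hold for them to be tested. Their log2 fold changes were 1.25, 1.54, 1.61 and 1.80 with SEs of 0.44 to 0.47, and none passed the test (edgeR adjusted p = 0.122, 0.0660, 0.0584 and 0.0525). Hoxc9 passed with limma-voom (adjusted p = 0.0472), and Hoxc9 and Hoxc10 passed without the low-count filter (0.0375 and 0.0399). The pooled ratio of counts per scaled library total was 3.53 for Hoxc9, with an exact 95% interval from 1.73 to 7.79 that covers counting error only. The interval does not allow for the entry of Hoxc9 through the KO libraries alone.

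Of the anterior genes of the cluster only Hoxc4 was tested. Hoxc4, a gene of the neck and upper trunk, had 14 and 13 control counts against 16 and 14 KO counts (log2 fold change 0.47, SE 0.36, edgeR adjusted p = 0.397). Hoxc5 had 0 and 3 counts against 10 and 3, Hoxc6 had 3 and 0 against 3 and 0, and Hoxc8 had 0 and 0 against 4 and 2. Hoxc5 shares 166 exonic bases on the same strand with Hoxc10, and how reads there were counted is not known. In CPM 8 of the 9 Hoxc genes were higher in both KO libraries than in both controls, beside 31.5% of all tested genes, and Hoxc6 overlapped. Of those 8, Hoxc9 to Hoxc12 were tested only because the KO libraries passed the filter, and Hoxc5 and Hoxc8 were too low to be tested. Only Hoxc4 and Hoxc13 can therefore be set beside the 31.5% of tested genes.

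The Hoxb genes (chromosome 11, Hoxb13 to Hoxb1) held the most reads in the controls, 49.1% and 45.6% of all Hox counts there and 44.7% and 42.0% in the KO libraries. The cluster sum was 341 and 284 control counts against 489 and 291 in KO replicates 1 and 2, or 8.63 ± 1.36 against 13.3 ± 3.88 CPM (SD, n = 2), a ratio of 1.54. Hoxb9 made up most of it. Without Hoxb9, the remaining 9 genes had 46 and 47 control counts against 63 and 54 KO counts, a ratio of 1.57.

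Hoxb9 (ENSMUSG00000020875.9, chromosome 11 from 96271457 to 96276595, plus strand), a gene of the thoracic region, was the most abundant member per kilobase of exon, at a mean of 3.62 CPM per kilobase over the 4 libraries, ahead of Hoxc13 at 2.88. It had 295 and 237 control counts against 426 and 237 in KO replicates 1 and 2. Scaled to library size these were 8.30, 6.40, 13.997 and 8.62 CPM, so that KO replicate 2 lay just above control replicate 1. The log2 fold change of 0.62 (SE 0.26) did not pass the test (edgeR adjusted p = 0.147). It was 0.23 without KO replicate 1 and 0.93 without KO replicate 2. The authors' deposited table gave 0.51 with an adjusted p of 0.0888.

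Hoxb8, which acts in the trunk and in blood progenitors, had 9 and 6 control counts against 22 and 15 KO counts (log2 fold change 1.61, SE 0.43, edgeR adjusted p = 0.0552). Hoxb13, the most posterior gene of this cluster, had 12 and 20 against 25 and 26 (1.00, SE 0.36, adjusted p = 0.110). For both, the KO libraries were above the controls, which for Hoxb8 was needed to pass the filter. Hoxb4, known for expanding blood stem cells, pointed the other way with 18 and 12 control counts against 9 and 6 KO counts (-0.67, SE 0.47, adjusted p = 0.351). Hoxb7 had 6 to 9 counts in every library, and the other 5 Hoxb genes had at most 1.

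The genes around the Hoxb cluster were mostly lower in the KO libraries, and their difference from the Hoxb genes was not tested. Of the 10 nearest protein-coding neighbours, 5 on each side, 9 had negative fold changes and 5 fell: Snf8, Ube2z, Calcoco2, Snx11 and Nfe2l1. Their median log2 fold change was -0.48, near the chromosome's -0.46. Snf8, a subunit of the endosomal sorting machinery, fell from 78.0 ± 2.05 to 41.6 ± 6.21 CPM (SD, n = 2; log2 fold change -0.91, SE 0.12, edgeR adjusted p = 0.0116). When the chromosome's median was taken out as an offset, Hoxb8 came to 2.06 (adjusted p = 0.0404), Hoxb13 to 1.45 (0.0563), Hoxb9 to 1.09 (0.0588) and Hoxb4 to -0.22 (0.787), and Snf8 to -0.45 (0.0528). With that offset Hoxb8 passed the test, as it also did without the low-count filter (0.0386).

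**Figure D3:**
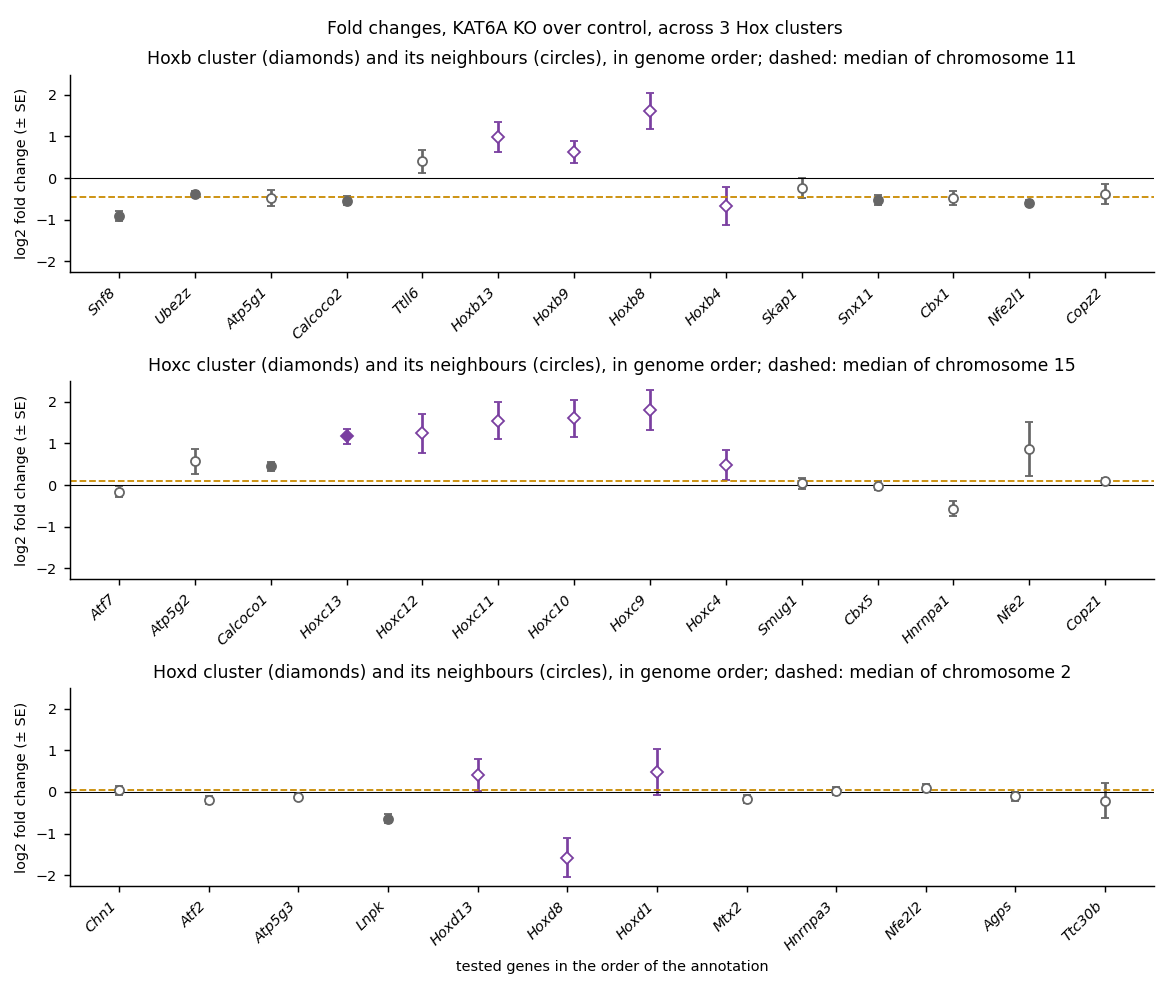
Log2 fold change (KAT6A KO over control) with bars of 1 standard error for the tested Hox genes (diamonds) and their tested protein-coding neighbours (circles) in genome order, in 1 panel each for Hoxb, Hoxc and Hoxd, filled where the adjusted p is under 0.05; the dashed line is the median of the chromosome. Hoxb13, Hoxb9 and Hoxb8 lie above 0 between neighbours that lie mostly near the chromosome 11 median of -0.46, and the 6 Hoxc genes lie above a chromosome 15 median of 0.10.

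Around the other clusters fewer neighbours were called. Of 8 tested neighbours of Hoxc, Calcoco1 rose (log2 fold change 0.45, SE 0.10, edgeR adjusted p = 0.0371), and the median was 0.07. It lies next to Hoxc13, and an offset for GC content brought it to 0.27 (adjusted p = 0.0604); without control replicate 1 or 2 its adjusted p was 0.293 or 0.191. Of 10 tested neighbours of Hoxa, Snx10 fell, with a median of -0.06. Of 9 tested neighbours of Hoxd, Lnpk, an endoplasmic reticulum protein gene on the Hoxd13 side, fell (-0.65, SE 0.11, adjusted p = 0.0174), with a median of -0.12; with the GC offset Lnpk came to -0.23 (0.155), and without control replicate 2 its adjusted p was 0.103. Over all 40 neighbours, 37 were tested, 1 rose and 7 fell, with a median of -0.16.

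Reads in the Hoxa cluster, on chromosome 6, were few, and 10 of its genes were not tested. Hoxa10, a gene of the lower trunk and the reproductive tract, had 7 to 11 counts, Hoxa7 4 to 9 and Hoxa9, a regulator of blood progenitors, 2 to 7. Hoxa2, Hoxa3, Hoxa4, Hoxa5, Hoxa6, Hoxa11 and Hoxa13 had at most 5 counts in any library. Hoxa7 had 4 and 6 control counts against 9 and 8 KO counts, and Hoxa2 0 and 0 against 5 and 1. For these 2 genes both KO libraries were above both controls. Hoxa3, with 4 and 3 control counts against 2 and 2 KO counts, lay the other way in CPM. All 3 are at levels where counting error is wide.

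The Hoxd sum on chromosome 2 did not separate the groups, with 69 and 77 control counts against 80 and 39 in KO replicates 1 and 2, or 2.01 ± 0.10 against 2.02 ± 0.86 CPM (SD, n = 2). Its members pointed different ways. Hoxd13, a gene of the digits and genital bud, had 33 and 37 control counts against 52 and 23 KO counts (log2 fold change 0.41, SE 0.38, edgeR adjusted p = 0.482), turning to -0.20 without KO replicate 1. Hoxd8 (chromosome 2 from 74704615 to 74707933, plus strand) had 15 and 23 control counts against 6 and 4 KO counts. It passed the filter only in the controls, so both KO libraries had to be below both controls. Its log2 fold change of -1.58 (SE 0.48) did not pass the test (adjusted p = 0.0724). Without KO replicate 1 it came to -1.82. Hoxd1 had 12 and 5 counts against 11 and 8 (0.47, SE 0.56, adjusted p = 0.588). Hoxd9, not tested, had 8 and 10 against 9 and 3, and Hoxd4, Hoxd10 and Hoxd11 had at most 2 counts. Without Hoxd13 the other 8 Hoxd genes summed to 36 and 40 control counts against 28 and 16 KO counts, a ratio of 0.718. Hoxd8 alone gave 15 and 23 of those control counts and 6 and 4 of those KO counts.

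**Figure D4:**
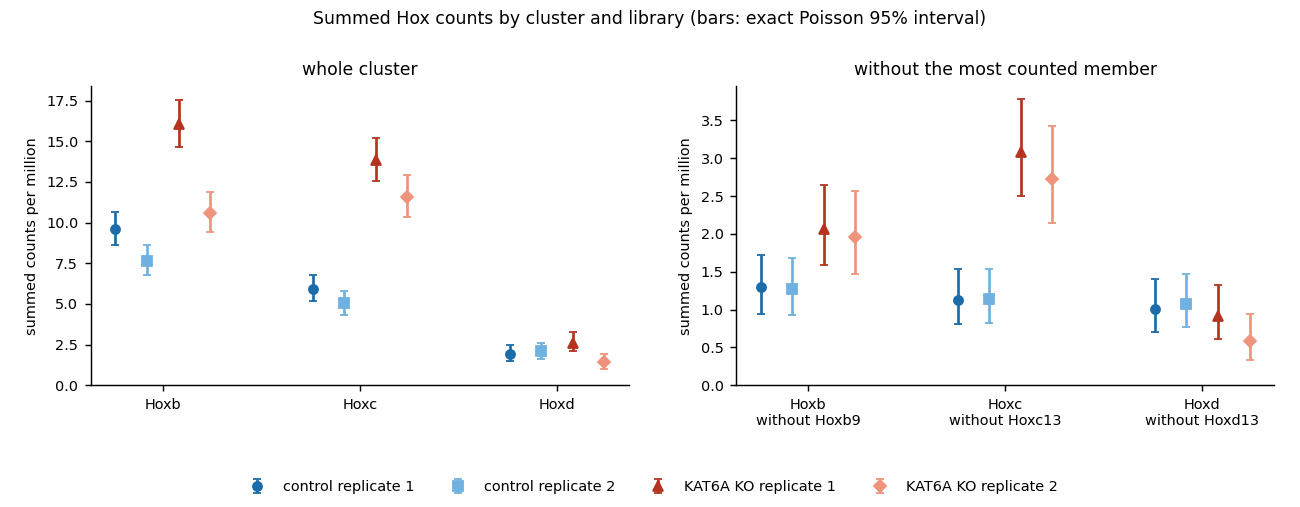
Summed CPM of the Hoxb, Hoxc and Hoxd clusters per library (left) and without the most counted gene of each (right), with exact Poisson 95% intervals that cover counting error only. The Hoxc intervals of the KO libraries lie above those of the controls in both panels, and the Hoxd symbols of the groups overlap in the left panel.

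Read across the clusters by paralog number, most Hox RNA came from the posterior genes, chiefly from Hoxb9 and Hoxc13. Positions 9 to 13 (16 genes) held 81.4% and 78.7% of Hox counts in the controls and 84.5% and 86.7% in KO replicates 1 and 2. Their sum was 565 and 490 control counts against 924 and 601 KO counts, or 14.6 ± 1.89 against 26.1 ± 6.01 CPM (SD, n = 2), a ratio of 1.79. Without Hoxb9 the ratio was 2.05, from 270 and 253 control counts against 498 and 364 KO counts. Hoxc13 alone gave 171 and 145 of those control counts and 327 and 243 of those KO counts. A sum without both genes was not taken. Positions 4 to 8 (15 genes) had 70 and 76 counts against 90 and 58, a ratio of 1.26 in CPM, with both KO libraries above both controls. Leaving out Hoxc4 from this class brought the libraries into overlap.

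Position by position, the sums at 9, 10, 11, 12 and 13 were each higher in both KO libraries. The ratios were 1.55 at position 9, 2.01 at position 10, 2.22 at position 11, 2.40 at position 12 and 2.06 at position 13. Most counts came from Hoxb9 at position 9, Hoxc11 at 11 and Hoxc13 at 13, while at position 12 all reads came from Hoxc12. At position 10, Hoxa10 had 11 and 7 control counts against 9 and 8 KO counts. Hoxc10 had 6 and 9 there against 23 and 14. The ratios at positions 11 to 13 are thus mostly those of the Hoxc cluster given above, and position 10 mixes Hoxa10 with Hoxc10. At position 13 the 4 paralogs read very differently: Hoxc13 had 145 to 327 counts, Hoxd13 23 to 52, Hoxb13 12 to 26 and Hoxa13 1 to 5. Among the lower positions, number 7 was higher in both KO libraries (10 and 15 counts against 15 and 14), as was number 2 (0 and 0 against 5 and 1, all from Hoxa2), and numbers 3, 4, 5, 6 and 8 overlapped. Summed over all 39 Hox genes, the controls had 694 and 623 counts and the KO libraries 1094 and 693, a ratio of 1.68 in CPM.

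Of the 3 Cdx genes, Cdx1 rose, and Cdx2 and Cdx4 were not called. Cdx1, which acts in the primitive streak and the vertebral column and is a target of WNT and retinoic acid signals, had 8 and 8 control counts, 71 in KO replicate 1 and 25 in KO replicate 2. Both KO libraries were above both controls, at 2.33 and 0.909 CPM against 0.225 and 0.216, and they differed more from each other than the controls did. That order was fixed by entry to the test, since only the KO libraries passed the filter for Cdx1. Cdx1 rose by 2.87 on the log2 scale (SE 0.56, edgeR adjusted p = 0.0258), or 7.31-fold. Without KO replicate 1 the log2 fold change was 2.03 and without KO replicate 2 it was 3.38. With all 4 libraries kept, Cdx1 was called under each setting in which it was tested, among them the one without a low-count filter. It was not tested under a minimum of 1 CPM in 2 libraries. The authors' deposited table listed it at 1.11 (SE 0.28) with an adjusted p of 0.00139, below the 2.88 from the authors' normalized means.

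Cdx2 (chromosome 5 from 147300805 to 147307270, minus strand), a key regulator of trophoblast and intestine, had 14 and 15 control counts against 4 and 5 KO counts. Both KO values were below the controls, which had to hold because Cdx2 passed the filter only in the controls. The log2 fold change of -1.34 (SE 0.47) did not pass the test (edgeR adjusted p = 0.103). Trophoblast markers were mostly lower as well. Of 14 such markers, Cdx2 among them, 11 were tested and 6 fell (Gata3, Krt8, Krt18, Krt7, Hand1 and Plac1), with a median log2 fold change of -1.05. The summed level of the 14 was 280 and 281 CPM in the controls against 108 and 162 CPM in KO libraries, and the placental marker Tpbpa was at 0. Hand1, a factor of trophoblast giant cells, had 300 and 361 control counts against 26 and 33 KO counts. In bulk RNA, fewer cells of a type and less RNA per cell cannot be told apart, and the part of these markers in the Cdx2 values was not tested.

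Cdx4, an X-linked gene that acts with Cdx1 and Cdx2 on posterior Hox genes, had 18 and 18 control counts, 19 in KO replicate 1 and 6 in KO replicate 2. The groups overlapped (log2 fold change -0.21, SE 0.51, edgeR adjusted p = 0.800). Like Cdx4, several members were higher in KO replicate 1 than in KO replicate 2: Hoxb9, Hoxd13 and Cdx1 all had CPM values there that were over 1.5 times those of replicate 2. Among tested members, Hoxc9 (0.427 against 0.655 CPM), Hoxb13, Hoxc12 and Cdx2 were instead higher in KO replicate 2. Kat6a RNA was higher in KO replicate 1, at 242 against 86.4 CPM, and its part in these differences was not tested. Markers of other cell types were read as well. Primitive endoderm markers summed to 1607 and 1540 CPM in control and to 469 and 839 CPM in KO libraries, with 6 of 11 tested lower. Of 6 tested mesoderm markers Tbx3 rose, of 6 tested neural markers Sox1, Tubb3 and Neurod1 rose and Nes fell, and of 5 tested fibroblast markers none was called by edgeR, DESeq2 or limma-voom (1 at an unadjusted p under 0.05), with Lum at 0. Of 10 ES cell markers Esrrb and Dppa5a rose. Their part in the Hox values was not tested.

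Hox proteins bind DNA together with TALE homeodomain cofactors, and 11 genes of this group were tested. Meis1, which binds together with Hox proteins and lies on chromosome 11, fell from 75 and 85 counts to 33 and 24 (-1.16, SE 0.25, adjusted p = 0.0315). Its call was lost with DESeq2 (adjusted p = 0.0573), with the chromosome 11 offset (-0.70, 0.125) and without either control library. The median of the 11 was 0.11.

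Of 21 regulators that act on Hox and Cdx expression, 4 rose and 1 fell, with a median of 0.04. Sall4, a zinc finger protein of pluripotent cells, rose by 0.50 (SE 0.08, edgeR adjusted p = 0.0170). Kmt2d, an H3K4 methyltransferase, rose by 0.42 (adjusted p = 0.0258), Dot1l, the H3K79 methyltransferase, by 0.40 (0.0253) and Asxl1, a Polycomb-associated protein, by 0.34 (0.0406). With the GC offset Kmt2d and Dot1l no longer passed (0.0703 and 0.0969), and each of the 4 lost its call when either control was left out. Lin28b, an RNA-binding protein that holds back the let-7 microRNAs and acts in the tail bud, fell from 1362 and 1443 counts to 793 and 551 (-0.74, SE 0.14, adjusted p = 0.0244). Its call held in every setting tried.

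Genes of the posterior axis and primitive streak, where Cdx and Hox genes are first switched on, gave 0 calls with edgeR, DESeq2 or limma-voom. Of 23 such genes 17 were tested, 2 were lower at an unadjusted p under 0.05, and the median was -0.15. The most abundant, Fgf4, which ES cells express, had a log2 fold change of 0.09 (edgeR adjusted p = 0.665), Msgn1 had 0 counts in every library, and the retinoic acid-degrading enzyme gene Cyp26a1 had 130 and 130 counts in the controls against 24 and 93. Homeobox genes linked to the clusters, such as Evx1 beside Hoxa13, gave 0 calls with the same tools among 6 tested of 8 (1 higher at an unadjusted p under 0.05), with a median of 0.24; the most abundant, Gbx2, had 204 and 363 counts against 333 and 339 (0.58, adjusted p = 0.166). The remaining ParaHox genes were not tested: Gsx1 had 9 to 10 counts, Gsx2 2 to 6 and Pdx1 at most 3.

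Of 43 noncoding or antisense genes within the clusters, 25 had 0 counts in every library and 3 were tested. None of the 3 was called by edgeR, DESeq2 or limma-voom or had an unadjusted p under 0.05, and their median was 0.35. The most abundant was Gm53, between Hoxb13 and Hoxb9, with 373 and 316 control counts against 397 and 308 KO counts (log2 fold change 0.35, SE 0.17, edgeR adjusted p = 0.189; 0.81 with the chromosome 11 offset, adjusted p = 0.0411). Hotairm1, from the Hoxa cluster, had 12 and 6 against 12 and 14, and Hotair, from the Hoxc cluster, 0 and 2 against 8 and 2. The clusters also hold microRNA genes whose products bind Hox mRNAs. Mature sequences from RefSeq (GRCm38.p6) are shown for 2 families, and Mir615, at 0 counts in every library, is left out. Each family shares a seed, bases 2 to 8 in capitals, and has copies in more than 1 cluster.
miR-196a-5p: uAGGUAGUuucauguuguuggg
miR-196b-5p: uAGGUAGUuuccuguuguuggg
miR-10a-5p: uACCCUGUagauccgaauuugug
miR-10b-5p: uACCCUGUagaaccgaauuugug
The miR-196 family is encoded at chr11:96265187-96265208 on the plus strand (Mir196a-1, between Hoxb13 and Hoxb9), on chromosome 15 (Mir196a-2) and at chr6:52230129-52230150 on the minus strand (Mir196b). The miR-10 family is encoded at chr11:96317186-96317208 (Mir10a, plus strand) and chr2:74726074-74726096 (Mir10b, plus strand). Of these hairpin genes only Mir196a-1 had counts, 24 and 14 in control and 17 and 15 in KO libraries. Libraries of polyadenylated RNA do not capture mature microRNAs, so these counts are reads of longer transcripts over the hairpin.

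The series' title places KAT6A at unmethylated CpG islands, so the CpG content of the members' promoters is given as background to the counts. RefSeq promoter windows of 250 bases upstream of the start were matched for 24 of the 42 members, 26 windows in all. Hoxc13, Hoxb9 and Cdx1 were among the 18 without one. The 26 windows held a median of 12.5 CG dinucleotides (2 to 35), against a median of 6 in all 32841 mouse windows of the same length. A GC content above 50% together with an observed to expected CpG ratio above 0.6 was met by 12 of the 26 windows and by 30.8% of all windows. The windows of 5 tested members are printed with each CG in capitals. They are examples within that range, from Hoxd13 with 31 CG dinucleotides to Hoxd8 with 6. They were chosen after the values were seen.
Hoxd13: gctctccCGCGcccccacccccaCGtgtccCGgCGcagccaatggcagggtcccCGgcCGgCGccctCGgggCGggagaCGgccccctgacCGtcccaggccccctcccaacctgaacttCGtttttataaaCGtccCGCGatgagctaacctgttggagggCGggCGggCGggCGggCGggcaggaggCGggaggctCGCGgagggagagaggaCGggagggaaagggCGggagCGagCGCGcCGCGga
Cdx2: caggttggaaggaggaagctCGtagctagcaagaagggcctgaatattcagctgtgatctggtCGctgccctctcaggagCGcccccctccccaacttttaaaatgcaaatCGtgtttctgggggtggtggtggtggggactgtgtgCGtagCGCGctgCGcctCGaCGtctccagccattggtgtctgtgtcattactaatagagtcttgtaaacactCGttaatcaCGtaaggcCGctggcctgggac
Hoxb8: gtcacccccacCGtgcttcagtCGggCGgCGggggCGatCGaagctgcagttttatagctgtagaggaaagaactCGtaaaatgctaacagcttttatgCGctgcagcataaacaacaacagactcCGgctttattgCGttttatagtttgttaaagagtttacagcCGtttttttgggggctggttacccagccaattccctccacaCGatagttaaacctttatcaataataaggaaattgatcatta
Hoxc4: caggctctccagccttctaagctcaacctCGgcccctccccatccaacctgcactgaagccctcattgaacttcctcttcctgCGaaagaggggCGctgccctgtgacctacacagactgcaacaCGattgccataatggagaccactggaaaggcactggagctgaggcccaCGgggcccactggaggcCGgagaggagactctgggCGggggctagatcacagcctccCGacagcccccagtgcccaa
Hoxd8: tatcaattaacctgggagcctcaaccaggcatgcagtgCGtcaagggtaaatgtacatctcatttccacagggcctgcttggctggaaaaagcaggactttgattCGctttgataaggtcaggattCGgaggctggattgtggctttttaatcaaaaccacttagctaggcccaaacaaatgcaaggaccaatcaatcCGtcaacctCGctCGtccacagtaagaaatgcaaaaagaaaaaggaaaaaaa
They lie, in GRCm38.p6, at chr2:74667975-74668224 on the plus strand (Hoxd13), chr5:147307250-147307499 on the minus strand (Cdx2), chr11:96281655-96281904 on the plus strand (Hoxb8), chr15:103034145-103034394 on the plus strand (Hoxc4) and chr2:74704365-74704614 on the plus strand (Hoxd8). The Hoxc4 window lies inside the GENCODE span of the gene, which runs from 103018934 to 103036852. Hoxd13 was denser in CG than most: 5.19% of all windows held as many or more. That share was 31.6% for Cdx2, with 13, and 33.5% for Hoxb8, with 12. It was 43.0% for Hoxc4, with 8, and 50.4% for Hoxd8, with 6. Beside these, the fold changes were 0.41 for Hoxd13, -1.34 for Cdx2, 1.61 for Hoxb8, 0.47 for Hoxc4 and -1.58 for Hoxd8 on the log2 scale, and none of the 5 passed the test. Neither DNA methylation nor KAT6A binding was measured in these libraries.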

How the data were processed

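Polyadenylated RNA (TruSeq Stranded mRNA kit, per the labels) was measured in 2 control and 2 KAT6A KO libraries, grouped by their labels. The deposited tables hold raw read counts per gene symbol; per the submitters' processing notes, featureCounts and DESeq2 were used. Aligner, build, annotation and strandedness of counting: not given in the sources used here. Antisense and overlapping genes can therefore not be told apart with certainty. The authors also deposited normalized counts (a signal, each library divided by 1 factor) and a results table without a header, whose columns were identified from their values: mean signal, log2 fold change, standard error, Wald statistic (score), p-value and adjusted p-value.

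Counts were analysed with edgeR 4.0.16 in R 4.3.3: filterByExpr by group (minimum count 10), TMM scaling (factors 0.992 to 1.01), robust quasi-likelihood test, Benjamini-Hochberg adjustment over 16112 genes, threshold 0.05. The common biological coefficient of variation was 0.112. The deposited counts of both replicate pairs differed beyond sampling noise, so each library counted separately. Intervals cover counting error only. Alternatives were RLE or library-total scaling, no filter or 1 CPM in 2 libraries, DESeq2 1.42.0, limma-voom (limma 3.58.1), a replicate block, GC-content and chromosome 11 offsets, and leaving out each library. The procedure was tested on simulated data. Gene positions came from GENCODE M21 (GRCm38), which held 97.3% of the symbols and all 42 members; sequences came from RefSeq.

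Members and lists were chosen with earlier results of these data known. Members are accounted for by their counts, with statistics for called members and the most abundant of each cluster. Other lists gave up to 2 called genes per direction with a mean of at least 1 CPM, or the most abundant if none was called, and all called genes where 5 or fewer were. Hoxb8, the Hoxc genes, Cdx2 and other genes that the rule does not take were named with their values in view. Some single genes are not reported here.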

Additional observations from a re-analysis of the deposited data

How the results depend on the processing

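Scaling by RLE or by library total, DESeq2 (no adjusted p for 11 of 17 members) and the GC-content offset left the number of called members at 2 higher and 0 lower. The number higher was 5 with no low-count filter, 1 with a minimum of 1 CPM in 2 libraries, and 1 to 7 when a library was left out; the number lower was then 0 to 1. Over all genes, leaving out a library gave 254 to 4020 higher and 648 to 4400 lower, the lone library being assumed to vary like the other group. Same-numbered libraries were not shown to be pairs: the correlation of their deviations from the group means was 0.0945, over 2 pairs. With the replicate number as a block, 6 members were called higher, and 1613 genes were higher and 2147 lower; a block with the GC offset left 2 members higher.

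Some directions turned. Hoxd13 ranged from -0.20 (without KO replicate 1) to 0.82, Hoxd1 from -0.043 (without control replicate 2) to 1.25, Cdx4 from -1.17 to 0.33 (without KO replicate 2), and Kat6a ranged from -0.74 to 0.75. Fgf4 ranged from -0.12 (without KO replicate 2) to 0.28. Nanog came to 0.025 with the GC offset and 0.022 with block and offset, and ranged from -0.20 to 0.054 (without KO replicate 2). Of the summed levels, Hoxd ranged from -0.50 to 0.39 and positions 4 to 8 from 0.069 to 0.56 on the log2 scale, each lowest without KO replicate 1; without Hoxd13 the Hoxd sum was -0.48. With a KO library left out, Pou5f1, Sox2, Nanog, Fgf4, Gbx2, Gm53 and Kat6a passed the test in at least 1 case. The cause was not tested. At these depths most members are limited by counting error.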
